A study of Homo sapiens with 12 samples.

Results

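The 10 genes described here are intestinal epithelial differentiation genes, and they were chosen by name: CDX1, HNF4A, VIL1, MUC2, CDH17, GPA33, TFF3, ATOH1, FABP1 and CEACAM5. Every probe of the expression array whose gene name equals 1 of these 10 was used, which gave 17 probes, among 32080 distinct gene names on the array. The arrays measured messenger RNA of Colo320DM, a human colorectal cancer cell line. Control clones (3) carried the plasmid pcDNA6.2-GW/EmGFP-miR-neg and knockdown clones (3) a TET1 knockdown vector, and all were selected with G418. From each clone came a mock array and an array of cells exposed for 72 h to 5-aza-2'-deoxycytidine at 1 µM. This drug, 5-aza-dC below, inhibits DNA methyltransferases. It was renewed daily with the medium, and the 12 arrays form 4 groups of 3: control mock, knockdown mock, control treated and knockdown treated. Each sample is a clone of a transfected line, so the groups differ by clone as well as by vector, and the study made its knockdown clones with more than 1 artificial microRNA construct.

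The intestinal lining renews itself from crypt stem cells, whose daughters become absorptive enterocytes and colonocytes or secretory cells. CDX1 and HNF4A are transcription factors of the absorptive and general intestinal programme, and ATOH1 is the factor that sets cells on the secretory path. VIL1 (villin) bundles actin in microvilli, FABP1 binds fatty acids, and CDH17, GPA33 and CEACAM5 are proteins of the epithelial cell surface. MUC2 is the gel-forming mucin of goblet cells, and TFF3 is the trefoil peptide secreted with it.

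The probes are 60 bases long, and 16 of the 17 carry a RefSeq transcript accession. Positions are those of the scanner files on hg19. Exon annotation of that build was not used here. The probes of CDX1 and MUC2 are shown because probes of 1 gene differed in detection. Both CDX1 probes lie on the plus strand of chromosome 5, at chr5:149563184-149563243 and chr5:149563427-149563486, with 183 bases between them. The first is printed with its last 3 bases in capitals, a stop codon in a reading frame that is open over the rest of the probe.

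CDX1 A_33_P3289848: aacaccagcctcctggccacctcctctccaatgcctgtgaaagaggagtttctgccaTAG

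The 4 MUC2 probes lie on the plus strand of chromosome 11, at chr11:1080924-1080983, chr11:1092337-1092396, chr11:1095153-1095212 and chr11:1103558-1103831. The last spans 274 bases of the genome for its 60, so parts of it lie apart there. They are printed in this order, with no capitals since no letter was singled out.

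MUC2 A_33_P3412384: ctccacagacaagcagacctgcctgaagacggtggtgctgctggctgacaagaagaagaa
MUC2 A_33_P3401571: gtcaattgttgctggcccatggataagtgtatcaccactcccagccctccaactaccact
MUC2 A_24_P84657: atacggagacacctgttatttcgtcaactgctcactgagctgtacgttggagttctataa
MUC2 A_23_P256784: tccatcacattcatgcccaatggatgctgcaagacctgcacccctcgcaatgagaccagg

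Only the second and the fourth of these MUC2 probes were detected on any array, as given below.

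The 75th percentile of the processed signal was 240.7 to 359.0 between arrays, and each array had 45.7% to 52.9% of its probes above background in the sense used below. TET1, the targeted gene, was measured with a log2 signal of 4.48 ± 0.23 in control mock and 3.56 ± 0.041 in knockdown mock clones (SD, n = 3), with 4.21 ± 0.19 and 3.55 ± 0.68 after treatment. By this probe (A_33_P3295550) treated knockdown clone 2 had 4.31, within the 4.06 to 4.42 of the treated controls, and treated knockdown clones 1 and 3 had 2.98 and 3.35. By A_19_P00806490 the same array had 1.02, below the 1.99 to 2.37 of the treated controls, and by A_23_P322756 it had -1.74, below their -0.77 to -0.61. For CDX1, CDH17 and GPA33 the differences between treated clones are given with and without this array. All levels below are log2 processed signals minus the 75th percentile of the same array. They compare arrays for 1 probe, and they say nothing on the amounts of different genes. The arrays lay on 2 slides. On slide 1 were control mock clones 1 and 2, all knockdown mock clones, and clones 1 and 3 of the treated knockdown group. On slide 2 were control mock clone 3, all treated controls, and clone 2 of the treated knockdown group. Treated control clones were therefore measured on slide 2 alone and mock knockdown clones on slide 1 alone. Among all 27286 probes compared, 25.9% did not overlap between the slides, and limma with the group as a term called 31.7% different between them.

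Only 1 of the 10 genes, CDX1, was detected on every array, where detected means well above background by the scanner software. CDH17 was detected on 11 arrays, GPA33 on 10 and MUC2 on 7. TFF3 was detected on 2 arrays, and VIL1 and FABP1 on 1 each. HNF4A, ATOH1 and CEACAM5 were not well above background on any of the 12 arrays. Of the 10 genes, 6 were thus detected on at most 2 of the 12 arrays. In RNA of whole cultures, fewer cells with a transcript and less of it per cell cannot be told apart. The lowest log2 signal of any probe well above background was -4.34 to -3.56 between arrays.

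**Figure D1:**
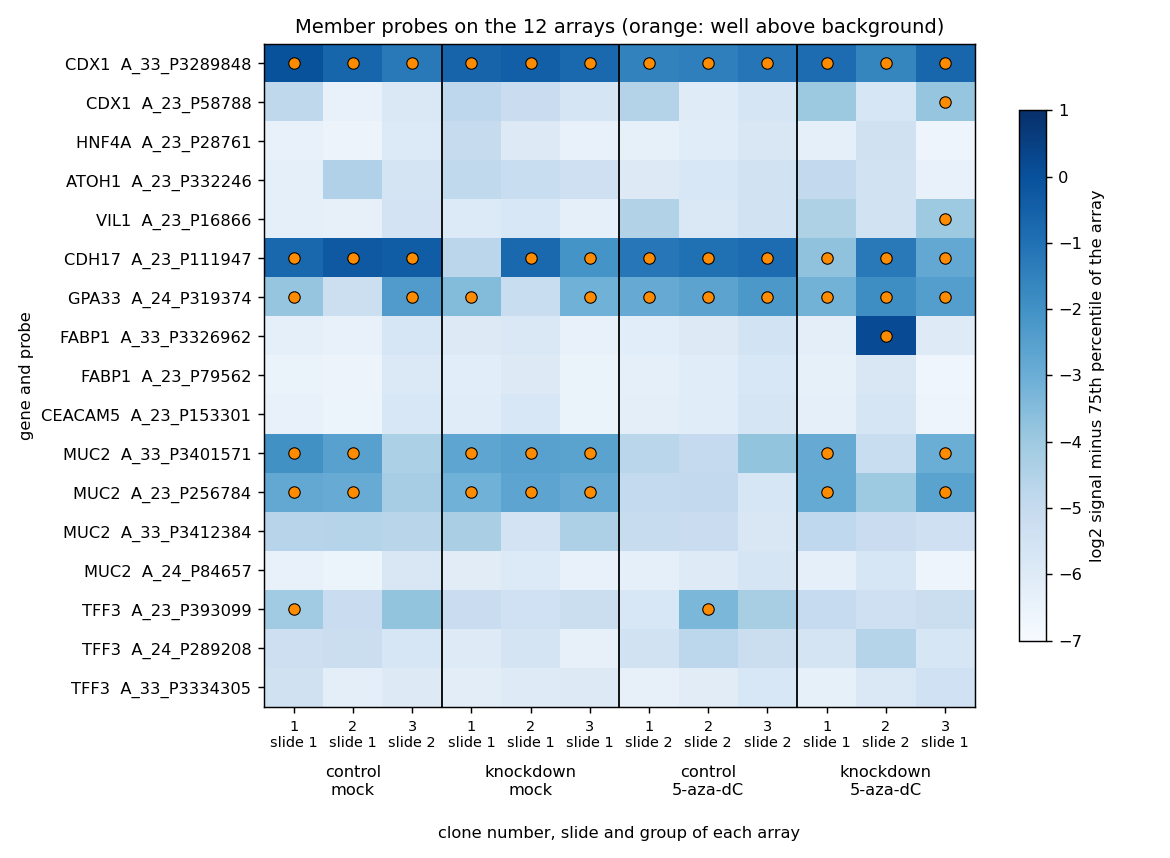
Log2 signal of the 17 member probes (rows) on the 12 arrays (columns, by group, clone number and slide), with darker blue for a higher signal and an orange point where the probe was well above background. Colours are to be compared along a row; CDX1 A_33_P3289848 has 12 points, and the 2 detected MUC2 probes have points on the 7 arrays of slide 1 and on none of slide 2.

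None of the 10 genes passed the test in any of the 6 comparisons (limma with no clone or slide term, Benjamini-Hochberg over all probes tested). Between knockdown and control clones, limma called 0.137% of all probes tested after mock treatment and 0.096% after 5-aza-dC. For 5-aza-dC against mock it called 5.22% in control clones, 2.05% in knockdown clones and 13.2% over all clones. The interaction of clone type and treatment was called for 0.0366% of probes. CDX1, CDH17 and GPA33 were bright enough to be tested in all 6 comparisons and MUC2 in 4 of them, and the other 6 genes in none. By the brightest probe of each tested member, an unadjusted p under 0.05 was found for 3 of 4 for 5-aza-dC over all clones, beside 32.1% of all probes tested. It was found for 1 of 3 in control clones, beside 26.5% of all probes, for 1 of 3 between treated clones, beside 19.2%, and for none in the other 3 comparisons. The median log2 difference over the 4 tested members was -0.46 for 5-aza-dC over all clones, beside -0.053 over all 27287 probes tested.

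CDX1, a homeobox factor of the intestinal epithelium, had the log2 signals -0.054, -0.63 and -1.25 in control mock clones 1 to 3 and -0.60, -0.46 and -0.74 in knockdown mock clones. After treatment it had -1.56, -1.45 and -1.16 in control and -0.86, -1.64 and -0.66 in knockdown clones. The groups overlapped in every comparison, and the signal of mock control clone 3 lay with those of the treated control clones. Knockdown and control clones differed by 0.041 (SE 0.32, adjusted p = 0.959) after mock treatment and by 0.34 (SE 0.30, adjusted p = 0.540) after 5-aza-dC, or by 0.63 (adjusted p = 0.0555) without treated knockdown clone 2. The fit without that array called 31.4% of all probes tested, and clone type and slide cannot be told apart in it. Within slide 2 the treated difference was -0.25, with 1 knockdown array. With 5-aza-dC the log2 difference was -0.74 in control clones (SE 0.32, adjusted p = 0.202), -0.45 in knockdown clones (SE 0.30, adjusted p = 0.693) and -0.60 over all clones (SE 0.23, adjusted p = 0.108, limma).

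The slides separated CDX1 where the groups did not, as they separated 25.9% of all probes compared. Its log2 signal was -0.86 to -0.054 on the 7 arrays of slide 1 and -1.64 to -1.16 on the 5 arrays of slide 2. With group as a term, slide 1 was higher by 0.90 (SE 0.19, adjusted p = 0.0075, limma). In the 3 clones with both arrays on 1 slide, treated minus mock was -0.26 to 0.095, and in the 3 clones with arrays on different slides it was -1.50 to -0.83. With slide as a block the difference with 5-aza-dC was -0.15 over all clones (adjusted p = 0.599). Without control mock clone 3, the only mock control on slide 2, limma called CDX1 lower with 5-aza-dC in control clones (-1.05, adjusted p = 0.0241) and over all clones (-0.75, adjusted p = 0.0287). Those fits called 35.5% and 25.8% of all probes tested. Treatment and slide cannot be told apart in the control clones of that fit. The second CDX1 probe was detected on a single array, treated knockdown clone 3 (-3.84), so the gene's level rests on the first probe.

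CDX1 was the 1 member detected on all 12 arrays, and 3 genes followed it most closely among 16187 probes of that kind. They were R3HCC1 (Pearson r = 0.958), ZNF169 (r = 0.947) and PHF23 (r = 0.945), over 12 arrays that share slides and clones. With each slide's mean removed, the correlations were 0.796, 0.753 and 0.747. The 3 genes were picked for the highest correlation on these same arrays, so neither set of values is a separate check.

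CDH17, a cadherin of the intestinal epithelium that also serves as a marker of gastrointestinal tumours, varied more between knockdown clones than between control clones. Its log2 signal was -0.71, -0.27 and -0.40 in control mock clones 1 to 3 and -4.74, -0.75 and -2.06 in knockdown mock clones 1 to 3. It was -1.21, -0.99 and -0.85 in treated control clones and -3.75, -1.26 and -2.79 in treated knockdown clones. Knockdown clone 1 was the lowest and knockdown clone 2 the highest of the knockdown clones with and without drug, and knockdown clone 2 lay close to the controls in both. Every knockdown clone was below every control clone after mock treatment and again after 5-aza-dC. Such separation was seen for 21.3% and 24.9% of all probes tested in these 2 comparisons, and it gave an exact permutation p of 0.1, the smallest that 3 against 3 arrays allow.

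The mean difference in CDH17 between knockdown and control clones was -2.06 (SE 0.94, adjusted p = 0.473) after mock treatment and -1.58 (SE 0.59, adjusted p = 0.238) after 5-aza-dC. Knockdown mock clone 1, the lowest array, was not well above background, and without it the mock difference was -0.95 (adjusted p = 0.778). Within slide 1 the mock difference was -2.03 over 3 knockdown and 2 control arrays. Within slide 2 the treated difference was -0.25, with knockdown clone 2 as the only knockdown array. Without that array, limma called CDH17 lower in treated knockdown clones (-2.25, adjusted p = 0.0079), in a fit that called 31.4% of all probes tested, and clone type and slide then cannot be told apart. Without treated knockdown clone 1 the difference was -1.01 (adjusted p = 0.466). With 5-aza-dC, CDH17 differed by -0.56 in control clones (SE 0.19, adjusted p = 0.143), by -0.080 in knockdown clones (SE 1.1, adjusted p = 0.987) and by -0.32 over all clones (SE 0.62, adjusted p = 0.748, limma). Treated minus mock was negative in 5 of 6 clones, from -0.72 to -0.45, and 0.995 in knockdown clone 1. In control clones the groups did not overlap, as for 32.3% of all probes tested there.

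**Figure D2:**
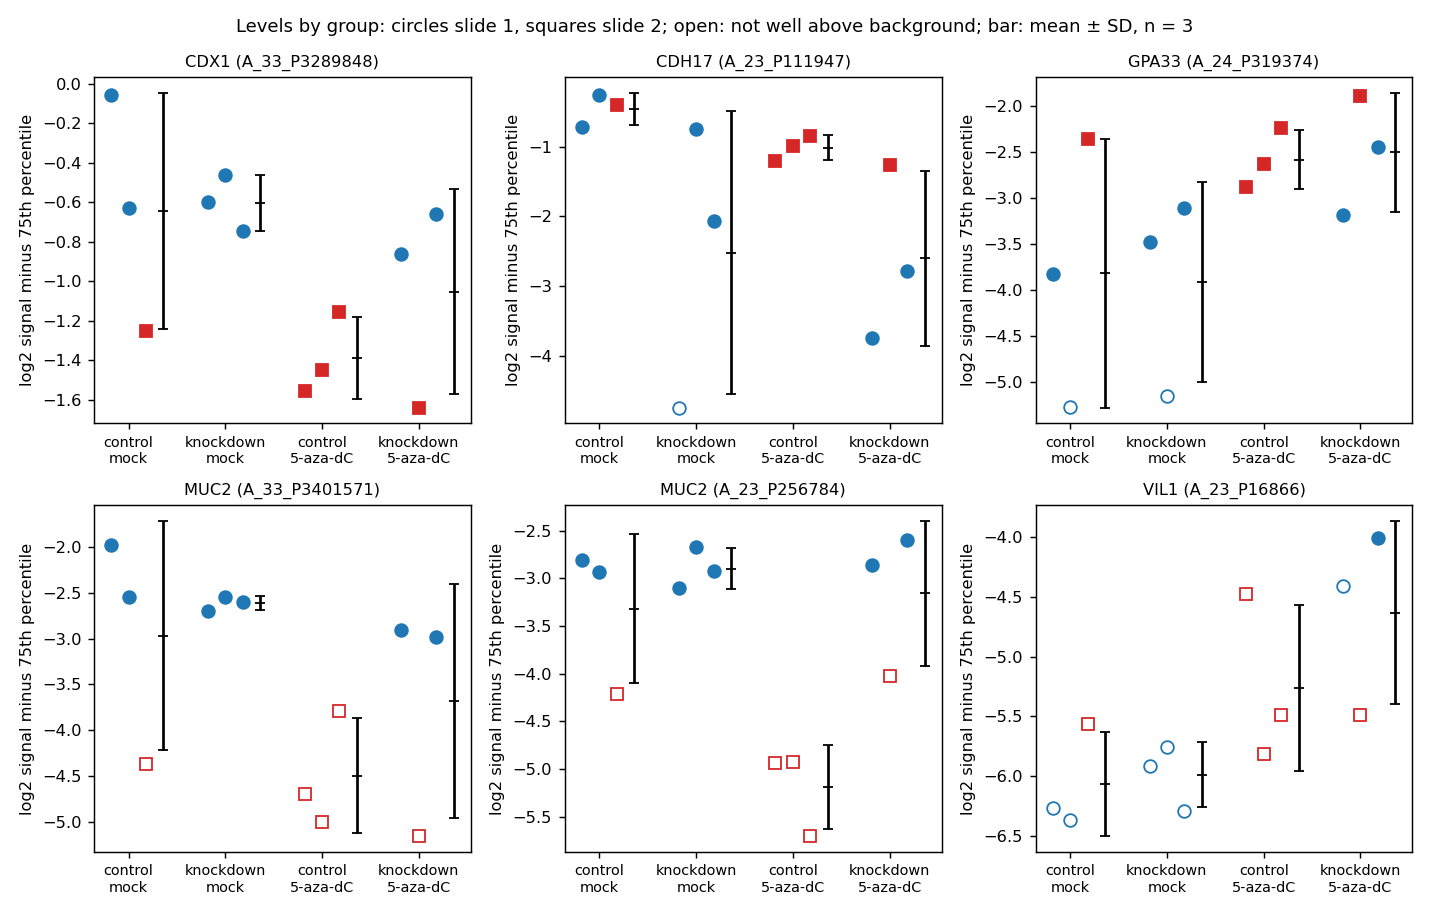
Log2 signal by group for CDX1, CDH17, GPA33, 2 MUC2 probes and VIL1, each in a panel with its own axis, with blue circles for slide 1, red squares for slide 2, open symbols where not well above background, and bars for mean ± SD (n = 3). CDX1 and both MUC2 probes separate by symbol colour, and CDH17 spreads from -4.74 to -0.75 in the mock knockdown clones.

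GPA33, a cell surface antigen of intestinal epithelium in the immunoglobulin superfamily, was higher in the treated array than in the mock array of all 6 clones. Its log2 signal was -3.82, -5.27 and -2.35 in control mock clones and -2.88, -2.63 and -2.24 in the same clones after 5-aza-dC. In knockdown clones it was -3.47, -5.15 and -3.11 after mock treatment and -3.18, -1.88 and -2.45 after 5-aza-dC. The mock arrays of control clone 2 and knockdown clone 2 were not well above background, and all 6 treated arrays were. The groups overlapped in both clone types. The mean difference with 5-aza-dC was 1.24 in control clones (SE 0.70, adjusted p = 0.295), 1.41 in knockdown clones (SE 0.60, adjusted p = 0.558) and 1.32 over all clones (SE 0.51, adjusted p = 0.106, limma). The interaction was 0.17 (SE 1.0, adjusted p = 0.9997), and knockdown and control clones differed by -0.093 (SE 0.84) after mock treatment and 0.078 (SE 0.37) after 5-aza-dC, or -0.23 (adjusted p = 0.581) without treated knockdown clone 2. Without that array clone type and slide cannot be told apart.

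In the 3 clones with both arrays on 1 slide, GPA33 was higher with 5-aza-dC by 0.12 to 0.66, and in the other 3 clones by 0.95 to 3.27. With group as a term, slide 1 was lower than slide 2 by a log2 difference of -1.56 (SE 0.61, adjusted p = 0.082, limma). Without control mock clone 3, limma called GPA33 higher with 5-aza-dC in control clones (1.97, adjusted p = 0.0287) and over all clones (1.69, adjusted p = 0.0226), in the fits that called 35.5% and 25.8% of all probes. Without control mock clone 2 it was 0.51 in control clones (adjusted p = 0.621) and 0.96 over all clones (adjusted p = 0.215), and without knockdown mock clone 2 it was 0.79 in knockdown clones (adjusted p = 0.886). With slide as a block the difference was -0.23 in control clones (adjusted p = 0.875), 1.10 in knockdown clones (adjusted p = 0.535) and 0.54 over all clones (adjusted p = 0.548).

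**Figure D3:**
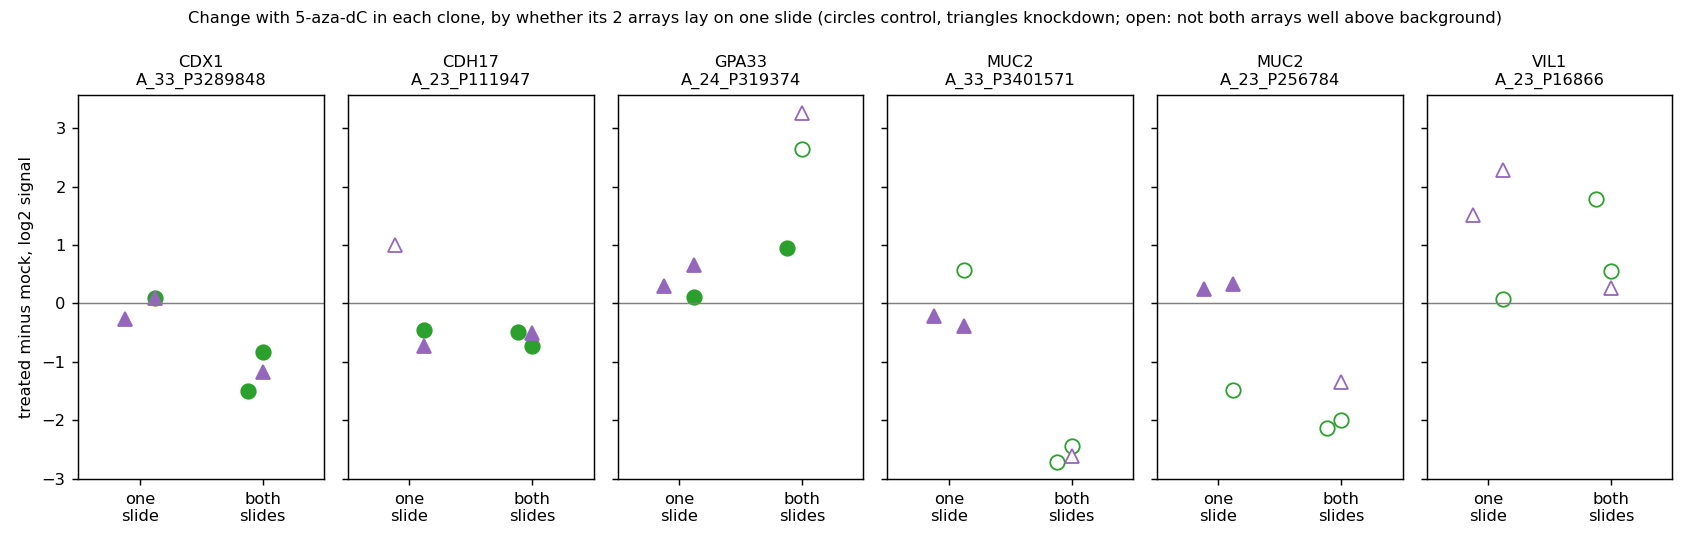
Treated minus mock log2 signal in each of the 6 clones (circles control, triangles knockdown), split by whether the 2 arrays of a clone lay on one slide or on both, with open symbols where not both arrays were well above background. CDX1 and MUC2 A_33_P3401571 stay near 0 in clones measured on 1 slide (-0.26 to 0.095 and -0.39 to 0.58) and are lower in the others, and all VIL1 symbols are open.

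MUC2, the secreted mucin of goblet cells, was detected by 2 probes on exactly the 7 arrays of slide 1. Probe A_33_P3401571 had the log2 signals -1.98, -2.55 and -4.37 in control mock clones and -2.69, -2.54 and -2.60 in knockdown mock clones. After 5-aza-dC it had -4.70, -5.00 and -3.79 in control clones and -2.91, -5.16 and -2.98 in knockdown clones. Probe A_23_P256784 had -2.81, -2.94 and -4.22 in control mock, -3.10, -2.67 and -2.93 in knockdown mock, -4.94, -4.93 and -5.70 in treated control and -2.86, -4.02 and -2.60 in treated knockdown clones. For both probes the low arrays were control mock clone 3, all treated controls and treated knockdown clone 2, which are the arrays of slide 2. Such separation by slide was seen for 25.9% of all probes compared. With group as a term, slide 1 was higher by 2.16 (SE 0.30, adjusted p = 0.00101) and by 1.32 (SE 0.23, adjusted p = 0.0032, limma).

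Over all clones the difference with 5-aza-dC was -1.30 for A_33_P3401571 (SE 0.49, adjusted p = 0.101) and -1.07 for A_23_P256784 (SE 0.32, adjusted p = 0.0512, limma), with 2 of the 6 treated arrays well above background. With the clone as a block A_23_P256784 passed the test (adjusted p = 0.0357, with 17.9% of all probes called), and with clone and slide as blocks it did not (-0.51, adjusted p = 0.175). In knockdown clones the difference was -1.07 (SE 0.61, adjusted p = 0.654) and -0.26 (SE 0.40, adjusted p = 0.851). For A_33_P3401571 it was -0.33 without treated knockdown clone 2 (adjusted p = 0.443) and also with slide as a block (adjusted p = 0.412). The knockdown groups did not overlap for A_33_P3401571, as for 19.2% of all probes tested there. No treated control array was well above background, so control mock exceeded control treated by a bound alone, at least 1.85-fold for A_33_P3401571 and at least 1.45-fold for A_23_P256784. By the same bound treated knockdown clones exceeded treated control clones by at least 1.13-fold and 1.62-fold. Only 2 of the 3 brighter arrays were well above background in each of these bounds, and in each all of those arrays lay on slide 1. Within slide 2, treated knockdown minus treated control was -0.66 for A_33_P3401571 and 1.17 for A_23_P256784, with 1 knockdown array. No array of slide 2 was well above background for these probes. In clones with both arrays on 1 slide, treated minus mock for A_33_P3401571 was -0.39 to 0.58, and in the other clones -2.72 to -2.45. For A_23_P256784 the same ranges were -1.49 to 0.33 and -2.14 to -1.35. Without control mock clone 3, limma called A_33_P3401571 lower with 5-aza-dC over all clones (-1.65, adjusted p = 0.0222) and A_23_P256784 too (-1.29, adjusted p = 0.0116), where 25.8% of all probes were called. For A_33_P3401571, with clone and slide as blocks the difference was 0.068 (adjusted p = 0.830). Between mock knockdown and control clones MUC2 was not called (0.36, SE 0.59, adjusted p = 0.798 for A_33_P3401571, limma). Control mock clone 3 was the only slide 2 array in that fit, so slide and clone both enter its SE. Within slide 1 the mock difference for A_33_P3401571 was -0.35, over 3 knockdown and 2 control arrays.

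VIL1, the villin of the brush border, was well above background on 1 array, treated knockdown clone 3. Its log2 signals were -6.26, -6.36 and -5.56 in control mock, -5.92, -5.75 and -6.29 in knockdown mock, -4.48, -5.81 and -5.48 in treated control and -4.41, -5.49 and -4.00 in treated knockdown clones. Because 11 of the 12 values, every mock value among them, were not well above background, VIL1 was not tested and no change is given.

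FABP1, the liver and intestinal fatty acid binding protein, was detected on 1 array by 1 of its 2 probes. Probe A_33_P3326962, at chr2:88422714-88422773 on the minus strand and named for the transcript ENST00000495375, had a log2 signal of 0.14 in treated knockdown clone 2 and -6.42 to -5.52 on the other 11 arrays. Its processed signal on that array was 265.6, and the spot was not marked as an outlier. The other probe, A_23_P79562, spans 1449 bases around that position and gave processed signals of 3.47 to 4.87 on all 12 arrays. A signal on 1 spot of 1 array has no replicate check.

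TFF3 was detected by A_23_P393099 alone of its 3 probes, in control mock clone 1 (-4.08) and treated control clone 2 (-3.32). The remaining arrays gave -5.76 to -3.81 for that probe, and neither group nor slide was shared by the 2 detected arrays. For the undetected genes, log2 signals were -6.62 to -5.06 for HNF4A, -6.43 to -4.45 for ATOH1 and -6.62 to -5.64 for CEACAM5. At this signal over background, a difference between groups in these 3 genes was not detectable.

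The upstream sequences of 6 of the 10 genes were held in the RefSeq table of GRCh38.p14 and were read for CG dinucleotides, the sites that DNA methyltransferases act on. Across 35116 such sequences, the 250 bases before the start held a median of 11 CG (quartiles 3 and 23). GPA33 had 0, CEACAM5 2, FABP1 4 and MUC2 6, each below that median, HNF4A had 8 at both of its listed starts, and ATOH1 had 18. The sequences of GPA33 and MUC2 are shown with each CG in capitals, since these genes differ in CG number and were detected in part of the arrays. GPA33 lies on the minus strand at chr1:167090378-167090627, and MUC2 on the plus strand at chr11:1074624-1074873.

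GPA33: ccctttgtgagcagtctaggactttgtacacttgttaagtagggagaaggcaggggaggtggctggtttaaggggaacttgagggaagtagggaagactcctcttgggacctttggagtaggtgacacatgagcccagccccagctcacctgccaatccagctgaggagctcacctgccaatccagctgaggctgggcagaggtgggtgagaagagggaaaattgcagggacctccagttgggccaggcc
MUC2: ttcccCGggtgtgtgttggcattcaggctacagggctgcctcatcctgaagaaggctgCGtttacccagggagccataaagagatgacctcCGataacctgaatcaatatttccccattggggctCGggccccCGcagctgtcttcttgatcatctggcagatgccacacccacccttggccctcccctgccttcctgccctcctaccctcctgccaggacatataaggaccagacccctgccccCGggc

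Further letter strings were searched on both strands, namely TATAAA, the TATA box, TTTATG, bound by CDX factors, and CAAAG, a core of HNF4 sites. They were in 3763, 3386 and 14773 of all 35116 sequences. FABP1 held all 3 of them, MUC2 held TTTATG, GPA33 and ATOH1 held CAAAG, and the CEACAM5 sequence and both HNF4A sequences held none. These are matches of letters in a short window, and methylation was not measured on these arrays.

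The wider intestinal programme was read through lists of other genes. Of 15 intestinal transcription factors on the array, 3 were detected on all 12 arrays, 8 on some and 4 on none. CDX2, the homeobox factor most used as a marker of colon epithelium, was detected on all 12, as were KLF5, a crypt factor, and FOXA1. Of 27 absorptive enterocyte and colonocyte genes, 3 were detected on all arrays and 12 on none. Those on all arrays were EZR, which links membrane to actin, CA2, a carbonic anhydrase, and KRT20, a keratin of differentiated colon cells. Of 16 goblet and other secretory genes 2 were detected on all arrays, the mucin MUC4 and REP15, and 5 on none. The Colo320DM label was also checked against general markers. The keratins KRT8 and KRT18 and the junction protein CLDN7 were detected on every array, while CDH1, the cadherin that defines epithelia, was on none. The mesenchymal markers VIM and COL1A1 and the leukocyte markers PTPRC and CD14 were also detected on every array. Of the same lists, COL3A1 was detected on 11 arrays, CDH2 on 10, CD3E on 4, SPARC on 2 and FN1 on 1. The mean log2 signal of the epithelial list was -2.18 to -1.55 on mock and -0.74 to -0.16 on treated arrays, and that of the neuroendocrine list -5.55 to -4.79 and -4.28 to -2.99. The part of these markers in the members' values was not tested.

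**Figure D4:**
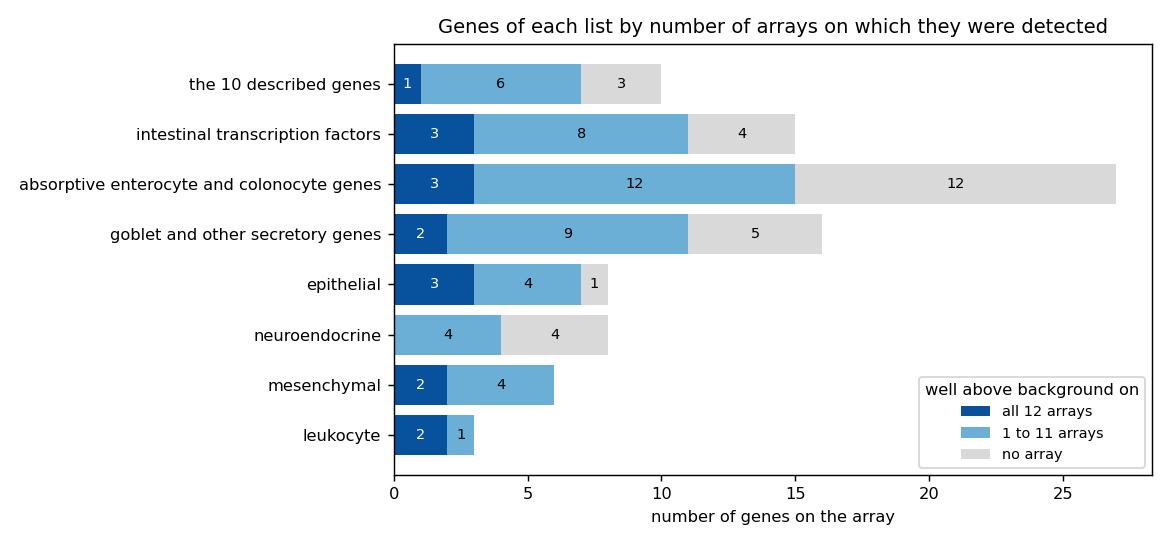
Number of genes of each list that were well above background on all 12 arrays, on 1 to 11 arrays or on no array. Of the 10 described genes 1, 6 and 3 fall in these classes, and of the 27 absorptive genes 3, 12 and 12.

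Over all clones, limma called 1 of 8 tested intestinal transcription factors higher with 5-aza-dC and none lower, a share near the 13.2% called of all probes tested. The list's median log2 difference was 0.23, beside -0.053 over all probes. FOXA3, a forkhead factor of endoderm and goblet cells, was higher over all clones by 1.77 (SE 0.40, adjusted p = 0.0177). Its mean log2 signal was -4.77 in control mock, -5.08 in knockdown mock, -3.07 in treated control and -3.24 in treated knockdown clones. ISX, an intestine-specific homeobox factor, was called in control clones, where it was higher by 1.88 (SE 0.39, adjusted p = 0.0489). HNF4A was not well above background on any of the 6 treated arrays.

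Of 8 tested absorptive genes 1 was called over all clones, again near that 13.2%. DPP4, a brush border peptidase, was higher by 3.21 (SE 0.43, adjusted p = 0.000834), though only 1 of the 6 mock arrays was well above background. The median of the list was 0.64. In control clones KRT20 was called higher by 1.35 (SE 0.22, adjusted p = 0.0216). Of 5 tested secretory genes 3 were called lower over all clones and none higher, beside 5.95% of all probes called lower, with a list median of -0.67. They were the trefoil peptides TFF1 (-0.72, SE 0.20, adjusted p = 0.0376) and TFF2 (-1.25, SE 0.29, adjusted p = 0.0209, with 1 of the 6 treated arrays well above background) and the membrane mucin MUC4 (-0.67, SE 0.14, adjusted p = 0.0137). Of the other MUC4 probes, limma called A_24_P239177 (-0.82, adjusted p = 0.0489) and A_33_P3417281 (-0.71, adjusted p = 0.0488) lower, but not with slide as a block. Probe A_24_P208825, detected on 5 arrays, was higher (1.28, SE 0.41, adjusted p = 0.0642, limma) and not called. The brightest probe of the mucin MUC5AC (A_33_P3216570) was detected on 2 treated control arrays and on no other, and it was not tested. A second MUC5AC probe (A_24_P917886) was called lower (-0.97, SE 0.21, adjusted p = 0.015). It was detected on 2 control mock, 3 knockdown mock, 0 treated control and 2 treated knockdown arrays. With slide as a block, which called 9.10% of all probes, none of the 3 genes passed the test (adjusted p = 0.172, 0.103 and 0.0579), nor did the MUC5AC probe (adjusted p = 0.0846), while FOXA3 and DPP4 did (adjusted p = 0.0103 and 0.00789). MUC13, a membrane mucin of the colon, was at least 1.80-fold higher in treated than in mock control clones (adjusted p = 0.0451, limma). TFF2 was at least 1.42-fold higher in mock than in treated control clones (adjusted p = 0.0176, limma). Each was detected on 3 arrays of the brighter group and 0 of the dimmer. Both entered the test only through the group where they are high, so these p-values are no separate support for a change. TFF1 was also called lower in control clones (-1.15, SE 0.20, adjusted p = 0.0307, limma). In those clones limma called 1 of 7 tested intestinal transcription factors, 1 of 5 absorptive and 3 of 5 secretory genes, beside 5.22% of all probes. With slide as a block, which called 2.09% of all probes there, TFF2 kept its call in control clones (adjusted p = 0.0306). ISX, KRT20, MUC13 and TFF1 did not (adjusted p = 0.256, 0.128, 0.161 and 0.0855). Between knockdown and control clones no gene of the 3 lists passed the test, with or without drug.

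**Figure D5:**
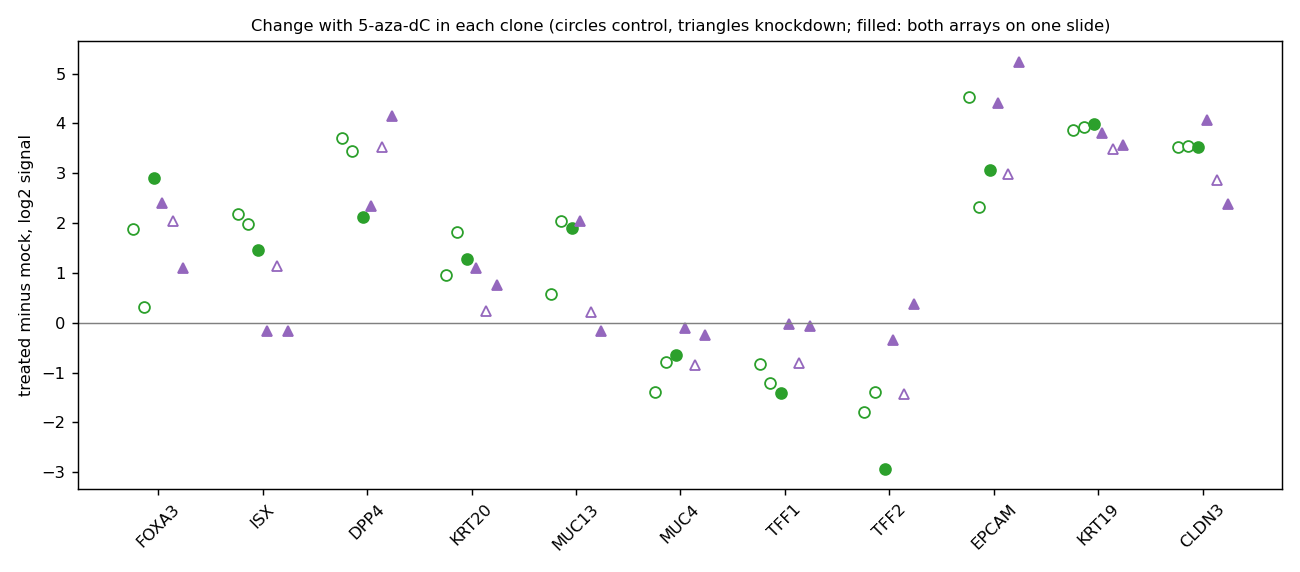
Treated minus mock log2 signal in each clone for list genes called with 5-aza-dC (circles control, triangles knockdown, filled where both arrays of the clone lay on one slide). FOXA3, DPP4, KRT20, EPCAM, KRT19 and CLDN3 are above 0 in all 6 clones, and TFF1 and MUC4 are below 0 in all 6.

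Among general epithelial markers, limma called 3 of 7 tested genes higher over all clones, beside 7.29% of all probes called higher. They were EPCAM, an epithelial adhesion molecule (3.76, SE 0.65, adjusted p = 0.00415), KRT19, a simple-epithelium keratin (3.78, SE 0.39, adjusted p = 0.000143), and CLDN3, a tight-junction claudin (3.32, SE 0.50, adjusted p = 0.00174). KRT19 was not well above background on any mock array, which gives at least 5.77-fold in control and 5.56-fold in knockdown clones. KRT19 entered the test only through the treated arrays, so its p-value is no separate support for a change. With slide as a block all 3 still passed (adjusted p = 0.0378, 0.00196 and 0.0046). A second CLDN7 probe (A_23_P164284) was called higher (1.11, SE 0.28, adjusted p = 0.0279, limma), but not with slide as a block (adjusted p = 0.0742). The brightest CLDN7 probe was not called (-0.20, adjusted p = 0.278, limma). Markers of other cell types were called higher in the same comparison, namely CHGA, CHGB and ENO2 of 4 tested neuroendocrine genes and CDH2 and COL1A1 of 4 mesenchymal genes. VIM and COL3A1 were not called, and COL3A1 was lower. In control clones 3 of 4 tested neuroendocrine genes were called, beside 5.22% of all probes. In knockdown clones 0 of 2 were, beside 2.05%. CHGA was detected on 3 treated control and 0 treated knockdown arrays. CHGB was at least 6.47-fold higher in treated than in mock control clones. Of the 10 differentiation genes 4 were tested over all clones and none was called, beside 13.2% of all probes tested. With 4 genes, a count of none cannot be told from that share.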

How the data were processed

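RNA of 6 Colo320DM clones was hybridised to 12 one-colour Agilent 60K arrays, in 4 groups of 3. The authors extracted the scanner files with Agilent Feature Extraction 10.7, and the deposited intensity per spot is background-subtracted and not normalized between arrays. A deposited table for the series repeats this intensity with fewer digits, and it was used as an alternative. Normalization in the authors' later software was not given in the sources used here.

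Control spots and outlier spots were left out, spots of a probe were averaged, and each array's 75th percentile was subtracted from its log2 signal. A probe was detected where at least 50% of its spots were well above background, and tested where it was detected on at least 3 arrays of the fit. Each of the 17 member probes has 1 spot. Comparisons were two-sided and made in R 4.3.3 with lmFit and eBayes of limma 3.58.1 (tables read by data.table, version 1.17.8), using the arrays of both groups compared, or on all 12 arrays for the mean effect and the interaction. The Benjamini-Hochberg adjustment ran over every probe of a fit, and the threshold was 0.05. The fits were tested on simulated data. No array depth exists, and 3 arrays per group limited the precision.

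A gene was represented by its brightest probe, and the other probes are given where they differ. A probe detected on no array of the dimmer group has only a bound. For the bound, each dim array was given its lowest detected signal of any probe, or the probe's own signal where that was higher, and the mean of these was set against the brighter group's mean. Fitted log2 differences of probes not detected on every array of the dimmer group (GPA33, MUC2, MUC5AC, MUC4 A_24_P208825, CLDN7 A_23_P164284, KRT19, CLDN3, EPCAM, FOXA3, DPP4, ISX, TFF1, TFF2, and CDH17 where mock knockdown clones enter) are no measured folds. The named genes are the 10 members, for CDX1 the 3 genes of highest correlation, and of each list the called genes and up to 3 of the brightest detected. For detection, the other mesenchymal and leukocyte markers reported here are named too. The members and lists were chosen with earlier results of these data known. Some genes of the lists are not reported here, and the counts of their lists leave them out.

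Slides were read from the files. Mock and treated arrays of one number are the same clone by the labels. Deviations from group means correlated by 0.213 to 0.316 in control clones and by 0.431 to 0.525 in knockdown clones, so the clone pairs the treatment comparisons. The main fits left this pairing out, and the clone block among the alternatives used it for the members. List genes were not fitted with that block. A number shared by a control and a knockdown clone marks no common clone (-0.029 to 0.089). RefSeq accessions of all 16 member probes that carry one were in the RefSeq table. Chromosome 8 sequence, of CDH17, is not reported here.

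Alternatives tried were normexp background correction (offset 50), quantile normalization, scaling by the array median, the series values, dropping the filter, requiring detection on every array, keeping outlier spots, slide, clone and both as blocks, the methods' t-test with Benjamini-Hochberg adjustment, and leaving out each array. The comparison of slides, the split of clones by slide and the slide block for the list genes were chosen after seeing the data.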

Additional observations from a re-analysis of the deposited data

How the results depend on the processing

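The count of members called was 0 in every comparison and stayed 0 under the other alternatives, with these exceptions. With the array median as the scale, CDX1 (-0.84, adjusted p = 0.0225) and MUC2 (-1.54, adjusted p = 0.0344, limma) were called for 5-aza-dC over all clones, a count of 2, in a fit that called 31.3% of all probes tested. That scale moved the median of all probes tested from -0.053 to -0.29. Leaving out 1 array gave counts from 0 to 3 over all clones and 0 to 2 in control clones, the highest without control mock clone 3, and 0 to 1 between treated clones, the highest without treated knockdown clone 2. The fits with those highest counts called 25.8%, 35.5% and 31.4% of all probes. Under the methods' t-test 0 members passed in the 4 comparisons of 2 groups.

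Of 337 values of single members under alternatives, 300 kept their direction and side of the threshold, 24 reversed and 13 became called. MUC2 probe A_23_P256784, at an adjusted p of 0.0512, was called over all clones under quantile normalization (0.03), the array median (0.0153), the clone block (0.0357), without control mock clone 3 (0.0116) and without treated knockdown clone 3 (0.0459). The adjusted p over its alternatives was 0.0116 to 0.229. The replicate block changed no other call of a member, with GPA33 over all clones at 1.32 (adjusted p = 0.101).

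With slide as a block, knockdown against control after mock treatment reversed to -0.26 for CDX1, 0.64 for GPA33 and -0.35 for MUC2, after 5-aza-dC to -0.25 for CDX1, and 5-aza-dC in control clones to -0.23 for GPA33. With the replicate block and slide, these became -0.19, 0.24 and -0.35 after mock treatment and -0.19 for CDX1 after 5-aza-dC. The same blocks gave 0.095 for CDX1 in control clones, 0.14 for CDH17 in knockdown clones and 0.068 for MUC2 over all clones. None of these reversed values was called. Normexp brought some differences nearer to 0, for CDH17 between knockdown and control clones to -1.07 (mock) and -0.87 (treated), and for 5-aza-dC over all clones to 0.39 for GPA33 and -0.42 for MUC2.

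Leaving out 1 array, knockdown against control after mock treatment ranged from -0.26 to 0.34 for CDX1, -0.82 to 0.64 for GPA33 and -0.35 to 0.85 for MUC2. For CDH17 it was -0.95 without knockdown mock clone 1. After 5-aza-dC it ranged from -0.23 to 0.42 for GPA33. For 5-aza-dC, CDH17 ranged from -1.19 to 0.81 in knockdown clones and -0.87 to 0.12 over all clones. The causes were not tested. Each member probe has 1 spot, so the other definitions of a detected probe gave the same 7 detected genes. Signal near background limits GPA33, MUC2 and the undetected genes.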
